A study of Homo sapiens with 5 samples.

Results

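Genes that build and run the DNA replication fork were followed in ribosome footprints of HAP1 cells. The members were chosen by function, with earlier results of these data known, as a list of 48 gene symbols. They cover origin licensing, origin firing, the polymerases and fork proteins, and nucleotide supply. The list also holds SLBP, the stem-loop binding protein of replication-dependent histone mRNAs. Of the 48 symbols, 46 were matched among the 14042 symbols of the count table, each to 1 row. All 46 passed the low-count filter. MCM3 and CDC45 were not analysed here.

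HAP1 is an established near-haploid human line derived from the leukaemic line KBM-7. The study asked what METTL18, a histidine methyltransferase whose target is the ribosomal protein RPL3, does in these cells. The 5 libraries came from haploid HAP1 cells, either wild type (n = 2) or METTL18 knockout (n = 3). No other allele, agent or time point is named for either group. The labels do not say how the knockout was made, how many clones it comprises, or whether libraries of a group are separate cultures. The p-values therefore reflect spread among libraries alone, and that spread may be technical.

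Before S phase, the origin recognition complex (ORC), CDC6 and CDT1 load the MCM helicase as an inactive double ring, a step that geminin (GMNN) blocks by binding CDT1 once S phase has begun. In S phase the DBF4-dependent kinase CDC7 and cyclin-dependent kinases recruit CDC45 and GINS, which turn MCM into the active helicase. Polymerase alpha-primase then starts each strand, RFC loads the PCNA clamp, and polymerases epsilon and delta extend the DNA. Many of these genes are transcribed under E2F factors at the passage from G1 to S phase, so in an unsynchronised culture their summed expression also depends on how many cells are in S phase.

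A footprint is an RNA stretch that a ribosome protects from nuclease, so a gene's count depends both on how much mRNA there is and on how densely ribosomes cover it. With no matched RNA-seq used here, these cannot be told apart. The labels' protocol describes isolating footprints, but their molecule field reads polyA RNA; the values are taken here as footprints on the strength of the protocol. Wild-type libraries held 4887380 and 5302160 counts and knockout libraries 16339574 to 17629199, so depth moved with genotype. Levels below are CPM (counts scaled to library size, here with TMM factors), and log2 fold changes are knockout over wild type. Genes were tested by edgeR quasi-likelihood, with p-values adjusted by Benjamini-Hochberg over all 11335 genes tested, and "rose" or "fell" means an adjusted p under 0.05. METTL18 stood at 5.71 ± 0.211 CPM (SD, n = 2) in wild-type cells and 2.10 ± 0.117 CPM (SD, n = 3) in knockout cells. It was lower in every library labelled knockout, but not absent (log2 fold change -1.44, SE 0.247, adjusted p = 2e-06, edgeR quasi-likelihood test). Of 10 haematopoietic markers, 5 were in the table, with CD33 at 0 in all libraries and a summed level of 0.674 to 0.732 CPM in wild-type cells and 0.508 to 0.660 CPM in knockout cells. Fibroblast markers (4 of 6 in the table) summed to 16.2 to 17.7 CPM and 23.9 to 26.2 CPM, and epithelial markers (4 of 5) to 142 to 151 CPM and 183 to 186 CPM. CDH1, the epithelial cadherin, was at 0.0842 CPM in wild-type and 12.4 CPM in knockout libraries. KRT18 made up most of the epithelial sum and rose from 145 to 171 CPM. EPCAM, at 1.32 and 1.59 CPM, neither rose nor fell, and KRT19 was at 0 and 0.129 CPM. Of the fibroblast markers, COL3A1 rose from 0.0842 to 1.93 CPM and COL1A1 from 16.7 to 22.7 CPM, and none fell. The part of these differences in the values below was not tested.

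Replication genes were mostly higher among knockout libraries, and the rise was unevenly shared among the steps. Of 46 members, 38 rose, 6 fell and 2 (ORC3 and LIG1) did not pass. Among all genes tested, 37.8% rose and 36.6% fell, 74.4% in all, so the share of members called, in either direction, is to be read against a background in which most genes differed. The median log2 fold change of the members was 0.69, against 0.02 for all genes tested. Because the members were chosen with earlier results of these data known, no set test was run on these contrasts. Knockout values lay above both wild-type values for 38 members, below them for 6 and overlapped them for 2. Over all genes tested, 83.5% had no overlap between groups (42.5% with the knockout above, 41.0% with it below). With a fold above 1.5 required (glmTreat in edgeR), 23 members rose and 3 fell, against 17.7% and 18.8% of all genes tested.

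**Figure D1:**
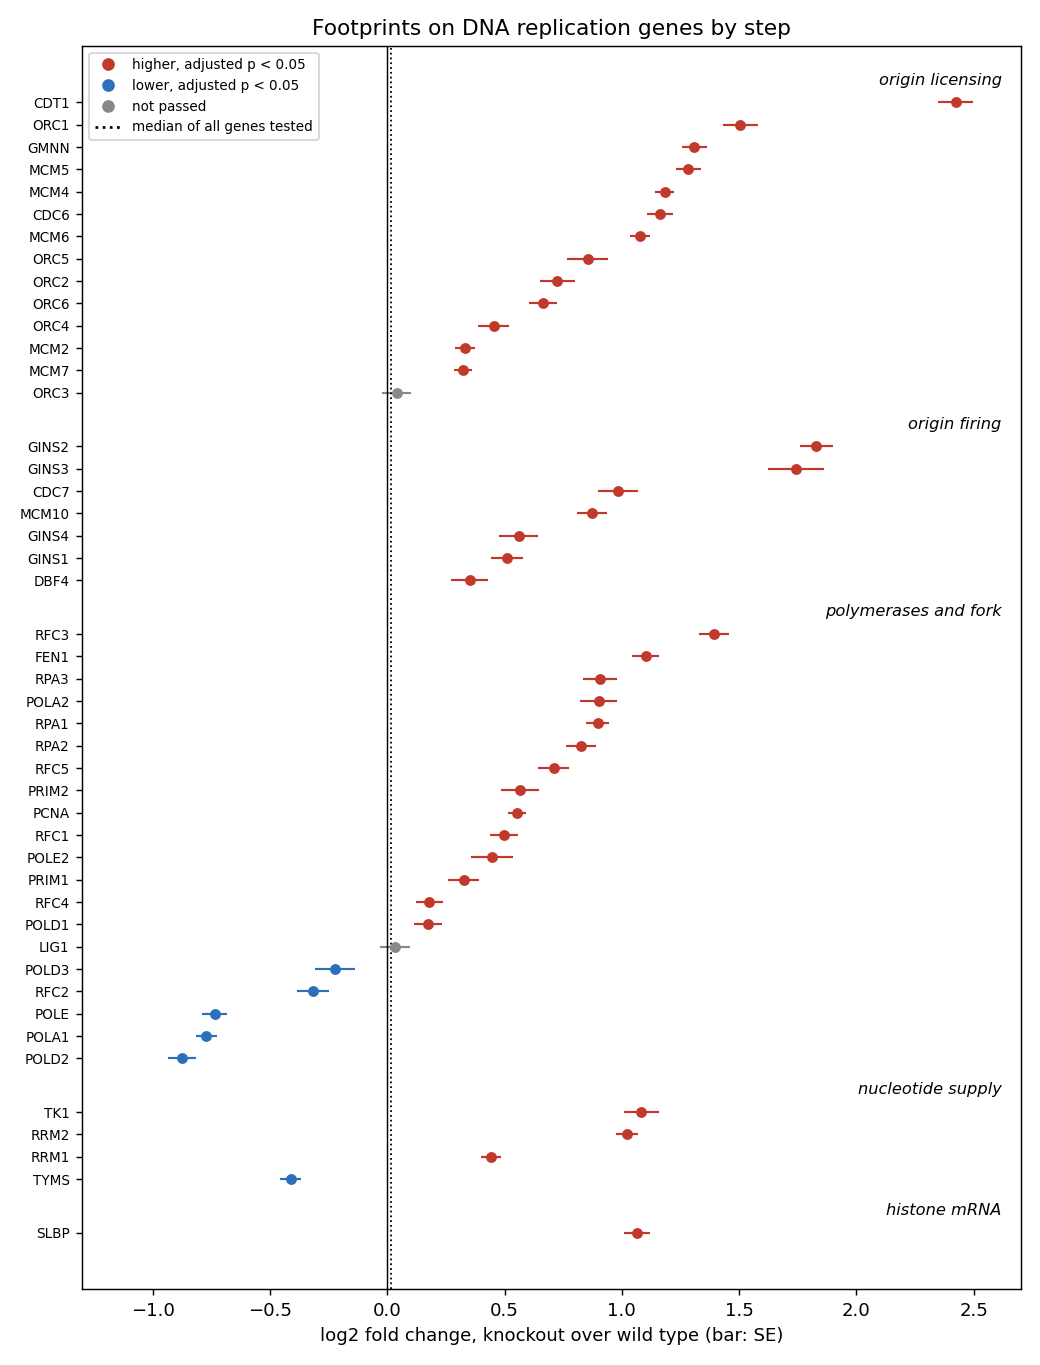
Log2 fold change of each of the 46 members (points, with SE bars), grouped by step; the dotted line is the median of all genes tested, 0.02. Every licensing and firing gene lies to the right of 0, with ORC3 closest to it at 0.04, while 5 fork genes and TYMS lie to the left.

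By step, 13 of 14 licensing genes and 7 of 7 firing genes rose and none fell. Of 20 polymerase and fork genes, 14 rose and 5 fell. Of 4 nucleotide supply genes, 3 rose and 1 fell. The medians were 0.97 for licensing, 0.87 for firing, 0.47 for polymerases and fork and 0.73 for nucleotide supply. The members together took 0.740% ± 0.00173 of all counts in wild-type libraries (SD, n = 2) and 0.942% ± 0.00990 in knockout cells (SD, n = 3). Licensing genes accounted for most of that gain, from 0.296% to 0.439% of counts, whereas the polymerase and fork genes moved from 0.288% to 0.304%. In a bulk culture, a larger share of cells in S phase and more footprints on these genes per cell cannot be told apart.

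**Figure D2:**
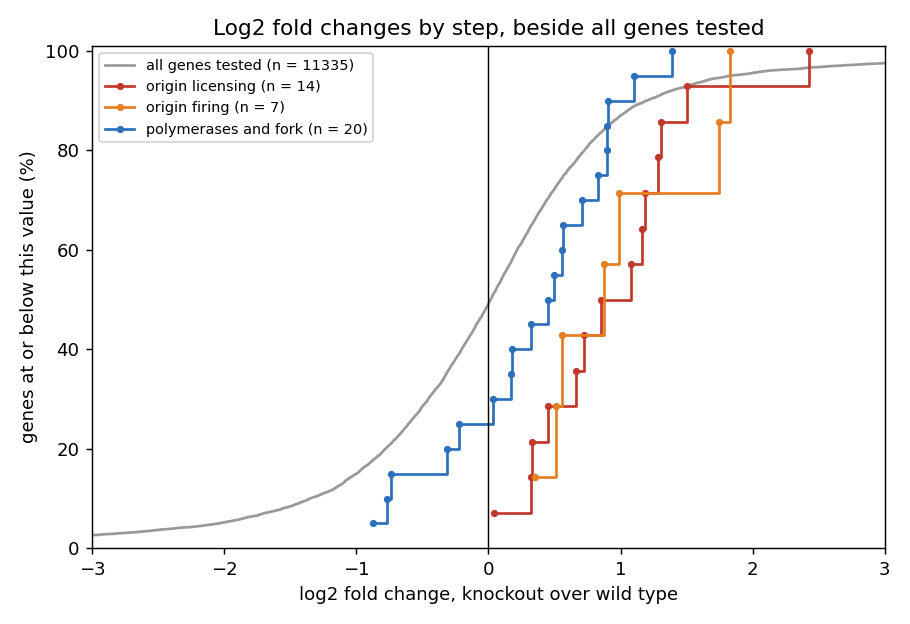
Cumulative share of genes at or below each log2 fold change for licensing (n = 14), firing (n = 7) and polymerase and fork genes (n = 20), beside all 11335 genes tested. The licensing and firing curves start above 0 and have medians of 0.97 and 0.87, and the fork curve crosses 0 with 5 called falls.

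The size of these changes depended on how libraries were scaled against each other. Scaling by total counts moved the median of all genes tested from 0.02 to -0.26, and that of the members to 0.41. Under it 31 members rose and 8 fell, against 26.3% and 49.4% of all genes tested. Ratios between 2 members of the same library do not depend on the scaling and are given below for each complex, per kilobase of coding sequence.

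The promoters of the 3 members with the largest rises and the 3 with the largest falls among those considered are given for the E2F core letters before genes that moved in opposite directions. They are from RefSeq (GRCh38.p14), written 5′ to 3′ on the gene's strand, with letters of the E2F core in capitals. The RefSeq starts of CDT1 and GINS2 lie inside the transcripts that were counted, 576 and 45 bases after the first base, and the stretches shown lie inside them too. The core was searched in the 250 bases before each RefSeq start, on both strands. The first spelling searched was TTCCCGC. A second spelling searched was TTCGCGC. A further spelling searched was TTGCCGC. The last spelling searched was TTGGCGC. CDT1 and GINS2 are shown as 30 bases round the match, and the others as up to 150 bases before the first annotated start.
CDT1 (rose, chr16:88803748-88803777, plus strand): gcgcccGCGGGAAatttgGCGGGAAccgcg
GINS2 (rose, chr16:85688968-85688997, minus strand): gctctcgccgtgGCGGGAAaacggcggccg
GINS3 (rose, chr16:58392321-58392393, plus strand): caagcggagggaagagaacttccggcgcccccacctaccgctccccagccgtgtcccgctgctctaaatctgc
POLD2 (fell, chr7:44123560-44123698, minus strand): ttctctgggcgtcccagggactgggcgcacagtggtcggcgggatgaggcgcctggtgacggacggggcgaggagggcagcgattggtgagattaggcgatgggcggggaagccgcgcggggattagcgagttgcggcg
POLA1 (fell, chrX:24693768-24693917, plus strand): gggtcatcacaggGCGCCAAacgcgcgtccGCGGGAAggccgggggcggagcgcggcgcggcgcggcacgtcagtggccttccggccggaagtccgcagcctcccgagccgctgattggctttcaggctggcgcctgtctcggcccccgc
POLE (fell, chr12:132687360-132687492, minus strand): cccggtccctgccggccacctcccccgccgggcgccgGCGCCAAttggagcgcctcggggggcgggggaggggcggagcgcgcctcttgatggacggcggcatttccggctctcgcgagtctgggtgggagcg

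CDT1 carries 2 copies of these letters within the 35 bases before its RefSeq start, and GINS2 carries 1. POLA1 and POLE, which fell, each carry 2 (1 of POLE's lies outside the stretch shown), whereas GINS3, which rose, and POLD2, which fell, carry none in the window. A RefSeq promoter was matched for 40 of 46 members (not for MCM4, MCM5, GINS4, POLD3, RPA2 and RPA3). For members it was the one whose start lay nearest that of the counted transcript. For the promoters of genes tested and of all genes it was the first listed for each gene. The shares below thus rest on unlike choices of start, and the part of that choice was not tested. E2F core letters stood in 18 of these 40 (45%), against 18.1% of 8835 promoters of genes tested and 11.02% of all 27305 promoters of the same length. By call, they stood in 13 of 33 members that rose, 3 of 5 that fell and both that did not pass. The letters CCAAT, the core of the NF-Y site, stood in 20 of 40 members (50.0%), against 35.0% of promoters of genes tested. They overlap the E2F core letters in ORC1, POLE and PRIM1. In POLE, GCGCCAA is followed by T. In PRIM1 the E2F core letters start at -24 and the CCAAT letters at -18, counted from the RefSeq start. The CHR letters TTTGAA, an element of G2/M genes, stood in 1 of 40 (RRM1), against 7.92% of promoters of genes tested. A match describes letters and not a bound site.

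Origin licensing held the largest rise of all members. CDT1, which brings MCM to ORC (hg38 chromosome 16, 88803213 to 88809258, plus strand), stood at 37.4 and 33.1 CPM in wild-type cells and at 199.6, 178 and 191 CPM in knockout cells. All knockout libraries were far above both wild-type libraries, a 5.36-fold rise (log2 fold change 2.42, SE 0.0742, adjusted p = 8.19e-29, edgeR quasi-likelihood test). It ranked 384 among the 11335 genes tested, counted from the largest rise. Its inhibitor GMNN, which is degraded at the end of mitosis, stood at 130.3 and 128 CPM in wild-type cells and at 313, 333 and 315 CPM in knockout cells (log2 fold change 1.31, SE 0.0524). CDC6, the ATPase that joins ORC to recruit MCM, rose from 96.1 and 92.6 CPM to 211, 208 and 215 CPM (1.16, SE 0.0561). For these genes as well the groups did not overlap.

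CDT1 gained on its inhibitor. Per kilobase of coding sequence, CDT1 footprints were 0.104 ± 0.00755 of GMNN footprints in wild-type libraries (SD, n = 2) and 0.227 ± 0.0200 in knockout cells (SD, n = 3), 2.18 times as much. The ratio was 0.110 and 0.0991 among wild-type libraries and 0.244, 0.205 and 0.232 among knockout libraries, with no overlap. CDC6 to GMNN was slightly lower in every knockout library, at 0.273 ± 0.00365 against 0.247 ± 0.0113. GMNN had the 2nd highest level per length of all members in knockout cells, at 510.2 CPM per kilobase, and the 6th highest in wild-type cells, at 206 CPM per kilobase. Both CDT1 and GMNN are also controlled by timed protein degradation, which footprints do not measure.

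Within ORC, which marks origins, the ORC1 subunit stood apart. ORC1, the subunit that is periodically degraded in human cells, rose from 33.7 and 39.7 CPM to 107, 103 and 102 CPM (log2 fold change 1.51, SE 0.0763). ORC5 (0.86), ORC2 (0.72), ORC6 (0.66) and ORC4 (0.45) rose less. ORC3 did not pass, at 103 and 119.6 CPM in wild-type cells and 115, 111 and 117 CPM in knockout cells (0.04, adjusted p = 0.563, edgeR quasi-likelihood test), and with total-count scaling it passed as lower (-0.23). Per kilobase, ORC1 had the lowest level of the subunits in both groups. Its ratio to ORC2 went from 0.444 ± 0.00168 to 0.765 ± 0.0599 without overlap, whereas that of ORC6 to ORC2 overlapped (3.30 ± 0.332 and 3.16 ± 0.201). The highest subunit exceeded the lowest 8.00- and 6.90-fold among wild-type libraries and 4.07- to 4.19-fold among knockout libraries.

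**Figure D3:**
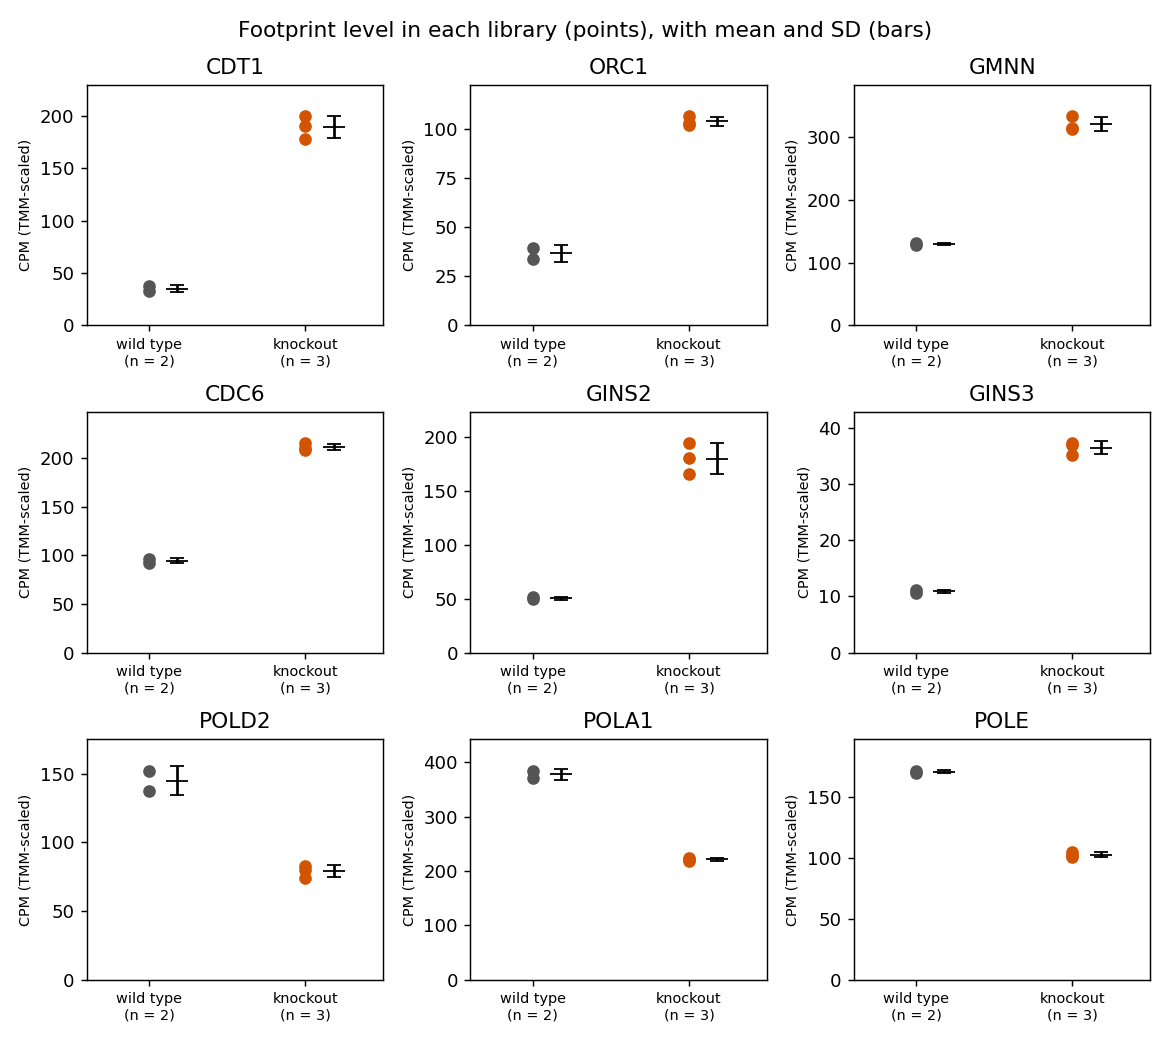
TMM-scaled CPM in each library for 4 licensing genes, 2 GINS subunits and 3 genes that fell (points: libraries; bars: mean and SD; axes start at 0). In the 6 panels of CDT1, ORC1, GMNN, CDC6, GINS2 and GINS3 every knockout point is above both wild-type points, and for POLD2, POLA1 and POLE every one is below.

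The MCM subunits form a ring with 1 copy of each per hexamer. The 5 analysed, which leave out MCM3, split into 2 patterns. MCM5 rose from 146 and 141 CPM to 351, 333 and 365 CPM (log2 fold change 1.28, SE 0.0525). MCM4 went from 448 and 441 CPM to 994, 1012 and 1023 CPM (1.18, SE 0.0407), and MCM6 from 342 and 345 CPM to 723, 719.9 and 729.9 CPM (1.08, SE 0.0422). These 3 subunits all rose more than 2-fold and their groups did not overlap. MCM2 rose from 386 and 375 CPM to 489, 476 and 469.7 CPM (0.33, SE 0.0429), and MCM7 from 698 and 675 CPM to 884, 853 and 838 CPM (0.32, SE 0.0397). The rise of MCM2 and MCM7 was much smaller, and with total-count scaling it did not pass (log2 fold changes of 0.0581 and 0.0505, adjusted p = 0.208 and 0.235, edgeR quasi-likelihood test).

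Per coding length, the range from the highest to the lowest of the 5 MCM subunits analysed narrowed, while some pairs within it moved apart. In the wild type MCM7 had 4.88 times the level of MCM5 per kilobase in each library, and in knockout cells the highest-to-lowest ratio was 2.57, 2.616 and 2.39. The ratio to MCM2 went from 1.22 ± 0.00987 to 2.21 ± 0.0768 for MCM4, from 0.465 ± 0.00145 to 0.901 ± 0.0496 for MCM5 and from 0.995 ± 0.0264 to 1.67 ± 0.0407 for MCM6. None of the 3 overlapped between groups. MCM7 to MCM2 was 2.27 ± 0.00827 and 2.26 ± 0.0163, and here the groups overlapped. MCM4 and GINS4 lie on chromosome 8, where the median of 386 genes tested was -0.36 and 51.0% fell, while both of these members rose.

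The firing genes all rose, led by GINS. GINS2 (hg38 chromosome 16, 85676198 to 85688999, minus strand) stood at 51.5 and 49.6 CPM in wild-type cells and at 180.1, 165 and 194 CPM in knockout cells (log2 fold change 1.83, SE 0.0719). GINS3 went from 11.1 and 10.6 CPM to 35.1, 37.2 and 36.9 CPM (1.74, SE 0.118). Both groups of libraries were well apart for these subunits. GINS4 rose from 33.3 and 34.6 CPM to 50.7, 50.1 and 49.4 CPM (0.56) and GINS1 from 63.8 and 70.3 CPM to 90.9, 96.5 and 98.8 CPM (0.51). The 4 subunits form 1 complex with a single copy of each, yet 2 of them rose over 3-fold and the other two under 1.5-fold. GINS2 to GINS1 per kilobase went from 0.802 ± 0.0762 to 1.999 ± 0.159 and GINS3 to GINS1 from 0.148 ± 0.0148 to 0.346 ± 0.00614, while GINS4 to GINS1 overlapped (0.446 ± 0.0188 and 0.462 ± 0.0262). GINS2, GINS3, CDT1 and ORC6 lie on chromosome 16, where the median of 491 genes tested was 0.11.

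CDC7, the catalytic subunit of the firing kinase, rose from 28.6 and 29.8 CPM to 57.2, 57.2 and 59.1 CPM (log2 fold change 0.99, SE 0.0852). Its activator DBF4 rose less, from 43.4 and 40.98 CPM to 52.9, 56.6 and 52.2 CPM (0.35, SE 0.0803), a call that total-count scaling ended (0.0792, adjusted p = 0.375, edgeR quasi-likelihood test). DBF4 to CDC7 per kilobase dropped from 1.23 ± 0.0864 to 0.794 ± 0.0456, without overlap, so that the kinase subunit had the higher level in knockout cells and the activator in wild-type cells. MCM10, which helps the helicase leave the origin, rose from 65.8 and 74.1 CPM to 129, 129 and 125 CPM (0.87, SE 0.0640).

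Among the polymerases, 4 subunits fell, including the catalytic chains of alpha and epsilon. POLA1, the catalytic subunit of polymerase alpha (hg38 chromosome X, 24693947 to 24996986, plus strand), stood at 371 and 384 CPM in wild-type cells and at 223, 222 and 218 CPM in knockout cells (log2 fold change -0.77, SE 0.0446, adjusted p = 3.5e-19, edgeR quasi-likelihood test). POLE, the catalytic subunit of the leading-strand polymerase epsilon (hg38 chromosome 12, 132623762 to 132687359, minus strand), went from 172 and 171 CPM to 105, 100.8 and 103 CPM (-0.74, SE 0.0533). POLD2, an accessory subunit of the lagging-strand polymerase delta, fell from 137 and 152 CPM to 82.7, 74.3 and 79.8 CPM (-0.87, SE 0.0605), the largest fall of any member. In each of these 3 genes the knockout libraries were all below the wild type. POLA1 is the only member on the X chromosome, where 49.8% of 416 genes tested fell and the median was -0.26. The part of the chromosome in these values was not tested.

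The partners of POLA1 moved the other way, as did POLE2, the partner of POLE among the members. POLA2, the regulatory subunit of polymerase alpha, rose from 37.7 and 42.99 CPM to 73.2, 78.5 and 73.9 CPM (log2 fold change 0.90, SE 0.0781), and the primase subunits PRIM2 (0.57) and PRIM1 (0.33) rose too. The call of PRIM1 was lost with total-count scaling (0.0539, adjusted p = 0.473, edgeR quasi-likelihood test). POLA2 to POLA1 per kilobase went from 0.261 ± 0.0175 to 0.831 ± 0.0312, PRIM1 to POLA1 from 0.580 ± 0.0277 to 1.24 ± 0.00827 and PRIM2 to POLA1 from 0.467 ± 0.00985 to 1.18 ± 0.129. The 4 subunits, which act as 1 complex, thus stood within a 4.02- and 3.66-fold range among wild-type libraries and within 1.48- to 1.55-fold among knockout libraries. POLE2 rose (0.45), though not with total-count scaling (0.175, adjusted p = 0.0773, edgeR quasi-likelihood test), and its ratio to POLE went from 0.933 ± 0.0953 to 2.11 ± 0.214. Of the epsilon subunits outside the members, POLE4 rose (0.67). POLE3 did not pass (0.06, adjusted p = 0.517, edgeR quasi-likelihood test), and its groups overlapped.

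Polymerase delta followed neither course. POLD1, its catalytic subunit, stood at 111 and 106 CPM in wild-type cells and 127, 118 and 124 CPM in knockout cells (log2 fold change 0.17, SE 0.0584, adjusted p = 0.00763, edgeR quasi-likelihood test). That rise did not pass without wild type replicate 2 (0.14, adjusted p = 0.128) or with a mean CPM of at least 10 required (0.11, adjusted p = 0.0721), and turned to -0.0985 with total-count scaling. POLD3, a further accessory subunit, fell from 40.1 and 43.5 CPM to 37.0, 36.0 and 34.3 CPM (-0.22, SE 0.0852, adjusted p = 0.0176), but not without wild type replicate 2 (-0.17, adjusted p = 0.187) or with DESeq2 (-0.22, adjusted p = 0.0877). POLD2 to POLD1 per kilobase dropped from 3.14 ± 0.326 to 1.52 ± 0.0257.

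At the clamp and its loader, PCNA had the highest level per length of any member in both groups, at 654 ± 6.51 and 959 ± 5.49 CPM per kilobase. It rose from 508 and 516 CPM to 752, 755 and 746 CPM (log2 fold change 0.55, SE 0.0401). Of the 5 RFC subunits, RFC3 rose most, from 77.8 and 64.4 CPM to 187, 189 and 186 CPM (1.39, SE 0.0638). RFC5 (0.71) and RFC1 (0.50), the large subunit, rose less. RFC4 rose least (0.18, adjusted p = 0.00432, edgeR quasi-likelihood test), and did not pass without wild type replicate 1 (0.12, adjusted p = 0.173) or after thinning knockout counts to match wild-type depth (0.12, adjusted p = 0.0729), and turned to -0.0924 with total-count scaling. RFC2 was the subunit that fell, from 78.8 and 73.0 CPM to 61.9, 61.4 and 59.6 CPM (-0.32, SE 0.0677). RFC3 to RFC2 per kilobase went from 0.929 ± 0.0738 to 3.05 ± 0.0463, the widest shift of the ratios computed between members.

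**Figure D4:**
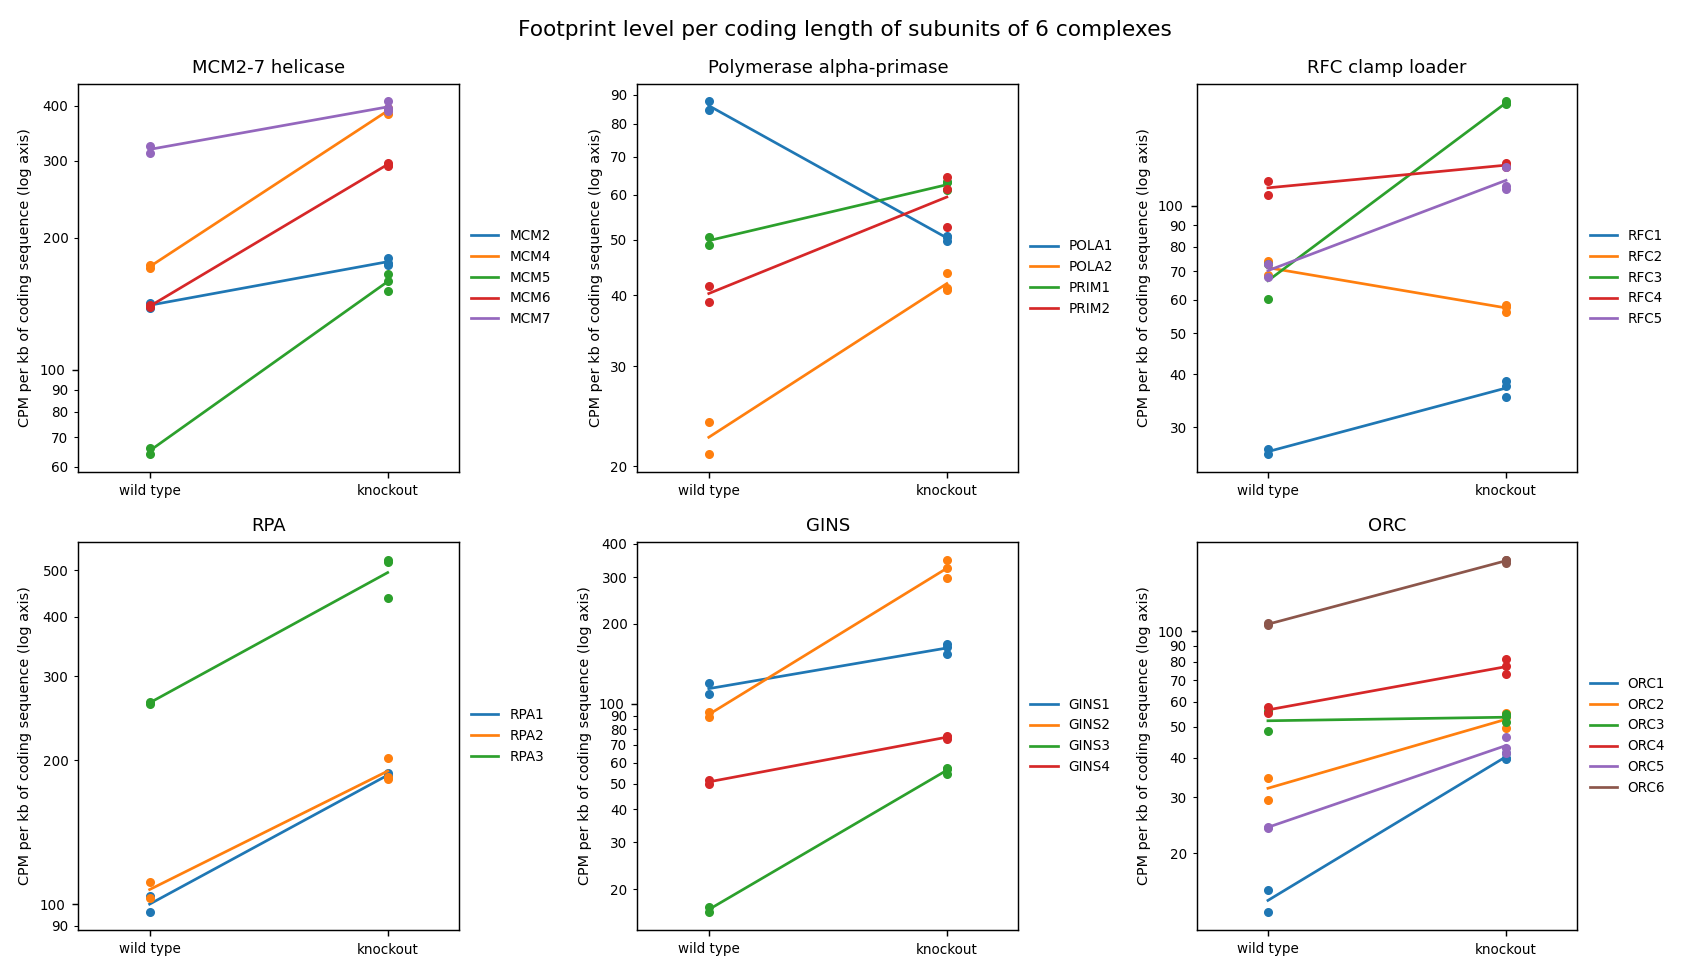
Level per kilobase of coding sequence (log axes) of the subunits of 6 complexes in wild type and knockout (points: libraries; lines join group means). The range from highest to lowest subunit narrows for MCM (without MCM3) and polymerase alpha-primase, although MCM6 leaves MCM2. RFC2 and RFC3 diverge, and the 3 RPA lines run nearly parallel.

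RPA, the trimer that coats single-stranded DNA, rose by similar amounts in all its subunits. RPA1 rose from 192 and 178 CPM to 342, 347 and 343 CPM (log2 fold change 0.90, SE 0.0490), RPA2 by 0.83 (SE 0.0623) and RPA3 by 0.91 (SE 0.0722). RPA3 stood at 96.1 and 95.5 CPM in wild-type and 159, 189 and 191 CPM in knockout libraries. Per kilobase, RPA2 to RPA1 was 1.08 ± 0.117 in wild-type cells and 1.02 ± 0.0606 in knockout cells, and RPA3 to RPA1 was 2.64 ± 0.131 and 2.66 ± 0.254. Both ratios overlapped between groups. Knockout replicate 1 was the low library for RPA3, yet above both wild-type values.

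Among the enzymes that finish Okazaki fragments, FEN1, the flap nuclease, rose from 129 and 116 CPM to 268, 250.5 and 274 CPM (log2 fold change 1.10, SE 0.0563). LIG1, the ligase that seals the nick after it, stood at 93.1 and 98.2 CPM in wild-type cells and 102, 92.3 and 99.04 CPM in knockout cells (0.03, SE 0.0627, adjusted p = 0.648, edgeR quasi-likelihood test). Its groups overlapped, and with total-count scaling it passed as lower (-0.24). LIG1 and POLD1 lie on chromosome 19, where 53.2% of 827 genes tested rose and the median was 0.39, and both genes were below that median.

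Of the 4 nucleotide supply genes, TYMS was the one that fell. RRM2, the reductase subunit made in S phase, rose from 238 and 243 CPM to 463, 492 and 509 CPM (log2 fold change 1.02, SE 0.0478), and RRM1, its more stable partner, from 347 and 342 CPM to 466, 468 and 472 CPM (0.44, SE 0.0430). RRM2 to RRM1 per kilobase went from 1.42 ± 0.0319 to 2.12 ± 0.0866. TK1, the salvage kinase for thymidine, rose from 39.2 and 37.5 CPM to 83.1, 80.1 and 80.8 CPM (1.08, SE 0.0755). TYMS, which makes thymidylate anew and is the target of fluorouracil, fell from 341 and 356 CPM to 260.4, 265 and 259 CPM (-0.41, SE 0.0448). The 2 routes to thymidylate thus moved in opposite directions, although TYMS kept the higher level per length (371 and 279 CPM per kilobase against 54.7 and 116 for TK1). SLBP rose from 119 and 121 CPM to 239, 263 and 253 CPM (1.07, SE 0.0552).

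Counting may have split reads between these genes and other loci. By GENCODE 29, 9 members have named pseudogenes. PCNA, RPA2 and RRM2 have 3 each, TYMS has 2, and DBF4, POLD2, RFC3, RFC5 and FEN1 have 1 each. In 11 members a coding exon overlaps an exon of another gene. TYMS, RFC5 and RRM2 are in both sets. The exons of TYMS overlap ENOSF1 on the opposite strand. Those of RRM2, POLA2, POLD1 and PRIM1 overlap a protein-coding gene on the same strand (AC007240.1, AP000944.2, AC020909.1 and AC117378.1, in that order). The sources used here do not say how shared and antisense reads were counted, and values of these genes are uncertain to that extent.

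In order of level per length, wild-type cells had PCNA, TYMS, MCM7, RPA3 and RRM2 at the top and CDC7, GINS3 and ORC1 at the bottom. There RRM2 and GMNN, at 206.2 ± 2.63 and 205.9 ± 2.76 CPM per kilobase, did not differ beyond their spread, nor did CDC7 and GINS3, at 16.97 ± 0.491 and 16.76 ± 0.548. The knockout order was PCNA, GMNN, RPA3, RRM2 and MCM7, with DBF4, POLD3 and POLE at the bottom. GMNN and RPA3, at 510.2 ± 17.5 and 495 ± 49.9 CPM per kilobase, did not differ beyond their spread in that group, nor did MCM7 and MCM4, at 398 ± 10.9 and 390.0 ± 5.76. The same held there for RRM2, at 418 ± 19.8, and MCM7, and for DBF4 and POLD3, at 26.6 ± 1.17 and 25.6 ± 1.01. CDT1 moved furthest up, from rank 42 of 46 to rank 23, and POLD2 and POLA1 each dropped 14 places, from 17 to 31 and from 20 to 34.

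Other genes of the same pathway, outside the members, were mixed. Of 71 genes on 5 further lists, 70 were tested, and 37 rose, 18 fell and 15 did not pass, with a median log2 fold change of 0.28. That is 52.9% rising and 25.7% falling, beside 37.8% and 36.6% of all genes tested. These lists too were chosen with earlier results of these data known. Among 15 regulators of licensing and firing, 9 rose and 4 fell. FBXO5, the inhibitor of the ubiquitin ligase that destroys geminin, rose from 19.9 and 19.9 CPM to 124, 116.5 and 111 CPM (2.56, SE 0.0872). MTBP, a partner of the firing factor TICRR, fell (-0.86) and lies on chromosome 8, where the median was -0.36. Of 14 fork protection and checkpoint genes, 9 rose and 2 fell. RAD9A was highest (1.36, SE 0.220, on 20 and 18 wild-type counts) and the checkpoint kinase CHEK1 lowest (-0.64). Of 14 other polymerase, clamp and primer-removal genes, 6 rose and 4 fell. The small delta subunit POLD4 was highest (1.21, SE 0.307, on 9 and 12 wild-type counts) and the translesion polymerase POLH lowest (-0.81). Of 9 genes of replication-coupled chromatin assembly, 6 rose and 1 fell, with TONSL highest (1.39) and the histone chaperone ASF1A the one that fell (-0.35). Of 18 further genes of nucleotide supply, 7 rose and 7 fell (38.9% each, near the shares over all genes tested), with a median of -0.05. SAMHD1, which breaks down dNTPs, rose from 116 and 116 CPM to 428, 434 and 442 CPM (1.90, SE 0.0513). Mitochondrial thymidine kinase TK2 fell (-1.49, SE 0.225), with only 37 to 50 counts in each library.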

How the data were processed

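Footprints of 28 to 32 bases were sequenced from 5 HAP1 libraries, per the labels' protocols. The authors deposited raw counts, 1 table of 14084 transcript rows. Per the submitters' processing notes Bowtie and hg38 were used; the sources used here give no versions, annotation or counting rules. Members and lists were chosen with earlier results of these data known. Genotype labels gave the groups.

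Counts were fitted with edgeR 4.0.16 in R 4.3.3 (TMM, filterByExpr with a minimum count of 10 and total of 15, robust quasi-likelihood, genotype as sole term). The procedure was run on simulated data in which few genes changed. Such data cannot test the scaling where most genes differ, as they did here. The alternatives were DESeq2 1.42.0, other scalings, filters, thinning, glmTreat, a replicate block and leaving out libraries. Coding lengths and positions came from GENCODE 29. The wild-type libraries differed slightly beyond counting error (chi-square per degree of freedom 1.14 over 10241 genes), and knockout libraries by 2.73 to 3.48, so all 5 were kept. Precision rested on depths of 4887380 to 17629199 counts, on the number of libraries and on the spread among them.

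All members were named. Every library's value was given for the 3 largest called changes of each step, each fall, and partners in MCM and GINS, of CDT1 and of RRM2; some others were added after their values were seen. Promoters were those of the largest rises and falls, leaving out chromosome 8. From other lists the largest called rise and fall were named, with POLE3 and POLE4 added as partners of POLE.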

Additional observations from a re-analysis of the deposited data

How the results depend on the processing

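Members that rose numbered 31 to 38 and members that fell 5 to 8 over all alternatives other than glmTreat, which requires a fold above 1.5 and gave 23, 3 and, for all genes called, 4140. The median log2 fold change of the members, 0.69, became 0.64 with the knockout thinned to the wild-type depth, 0.63 with a mean CPM of at least 10, and 0.41 with total-count scaling. Leaving out each library in turn gave 0.63 (without wild type replicate 1) to 0.71 (without wild type replicate 2), 37 or 38 rises, 5 or 6 falls and 7391 to 8284 genes called. With total-count scaling ORC3 (-0.23), LIG1 (-0.24), POLD1 (-0.0985) and RFC4 (-0.0924) changed sign, which follows the shift of the median of all genes to -0.26. With the replicate block, which shares only a number (correlation of the replicate 1 to 2 difference between groups 0.0182), 38 members rose, 6 fell, the median was 0.66 and 8476 genes were called. Depth ran with genotype, and its part was tested only by thinning.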
